A study of Mus musculus with 12 samples.

Results

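The change in gene expression that c-KIT-low long-term hematopoietic stem cells (LT-HSCs) showed against c-KIT-high LT-HSCs in both normal and chronic myelogenous leukemia (CML) marrow was described from RNA-Seq. All 12 libraries entered, 6 a side, as 3 from each of 4 groups: normal c-KIT-high, normal c-KIT-low, CML c-KIT-high and CML c-KIT-low. The average effect was the mean of both c-KIT-low groups minus the mean of both c-KIT-high groups on the log2 scale, and genes were followed when they moved the same way in each disease state. Of 48795 genes in the count table, 14676 had enough counts to be tested. Of these, 1510 were higher and 1835 lower in c-KIT-low LT-HSCs (22.8% in all). The same sign in normal and CML cells was seen for 1499 of the former (10.2% of all tested genes) and 1808 of the latter (12.3%). Selection on the average favors a shared sign, which 66.3% of all tested genes had.

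CML cells came from Scl-tTA-BCR-ABL mice, in which a tetracycline transactivator under an enhancer of *Scl* (*Tal1*), active in blood stem and progenitor cells, switches on BCR-ABL when doxycycline is withdrawn. The methods state that marrow of these mice was transplanted into irradiated wild-type recipients, that the control group stayed on doxycycline, and that mice of both sexes were used at a young adult age. GEO's labels call the normal mice B6 and do not mention the transgene for them, so whether normal cells carried it is unclear. LT-HSCs were sorted as lineage-negative cells positive for Sca-1, c-KIT and CD150 and negative for CD48 and Flt3, and the c-KIT-high and c-KIT-low gates took the cells with the most and the least surface c-KIT in control marrow. These gates were then applied unchanged to CML LT-HSCs. The labels give 4 biological replicates per group and 3 were analysed here. They do not say whether each library came from 1 mouse or a pool, so p-values measure only the spread between these libraries.

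c-KIT is the receptor for stem cell factor, and its surface level divides LT-HSCs that are otherwise sorted alike. In transplantation studies, cells with little surface c-KIT are known for deep quiescence and durable self-renewal, while cells with much c-KIT divide sooner and lean toward megakaryocytes. Quiescent stem cells are known to rely on glycolysis and autophagy and to keep mitochondrial respiration and protein synthesis low. Surface c-KIT is set by internalization and degradation of the protein as well as by its mRNA. The gate selected protein, so *Kit* mRNA was not fixed by it.

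Library composition separated the gates before any gene was considered. Counts on genes ranged from 7753878 to 13213021 in the 6 c-KIT-high libraries and from 14487608 to 31020852 in the 6 c-KIT-low libraries. Genes took 24.4% to 37.1% of all counted entries at c-KIT-high and 43.9% to 60.6% at c-KIT-low, while reads matching several places took 58.9% to 66.9% and 34.3% to 52.3%. Of the gene counts, 7.04% to 13.8% fell on genes with under 1 kb of exon at c-KIT-high and 1.4% to 5.46% at c-KIT-low, and 0.416% to 2.88% against 0.141% to 0.271% were mitochondrially encoded. None of these measures overlapped between the gates, and each had the smallest p that an exact two-sided permutation within disease states allows, 0.005 (0.0121 after Benjamini-Hochberg adjustment over 17 library measures). The gate and the composition of the library cannot be told apart in this design, and the libraries' part in the changes below was not tested. In bulk RNA, a larger share of cells expressing a gene and more RNA of it per cell also cannot be told apart.

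**Figure D1:**
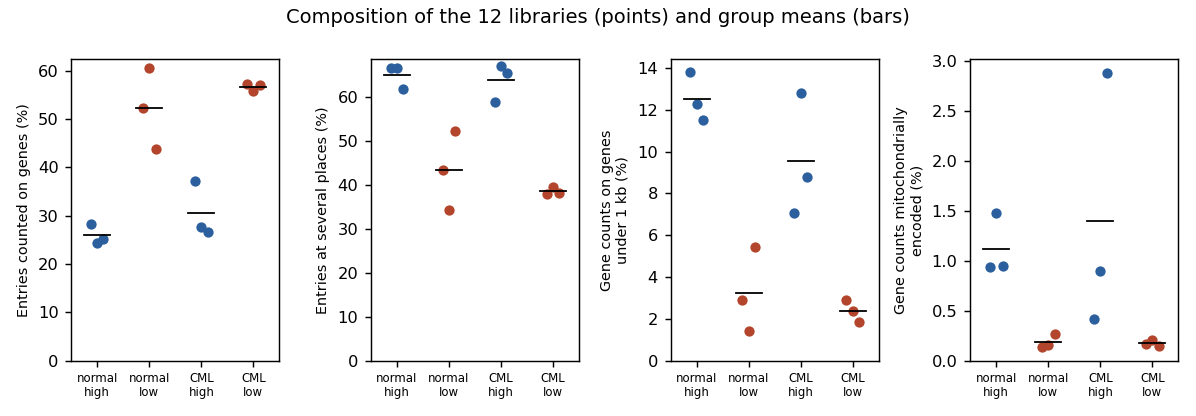
Composition of the 12 libraries (points, c-KIT-high in blue, c-KIT-low in red) with group means (bars) on linear axes that start at 0, as percent of counted entries on genes and at several places, and percent of gene counts on genes under 1 kb and mitochondrially encoded. In each panel the 6 c-KIT-low libraries lie apart from the 6 c-KIT-high libraries, with 1.4% to 5.46% against 7.04% to 13.8% of gene counts on short genes.

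Individual libraries also stood apart. Replicate 1 of normal c-KIT-low had 10 or more counts for 9760 genes, the fewest, and lay farthest out on the first principal component. Replicate 3 of normal c-KIT-low correlated less with its own group than with the other groups (0.752 against 0.792), and so did replicate 2 (0.713 against 0.727). Without replicate 3 of normal c-KIT-low the counts of genes higher and lower were 1942 and 2445, and without replicate 1 they stayed within 1.5 times of those with all libraries. The lowest counts with a library left out were 839 higher without replicate 2 of CML c-KIT-high and 960 lower without replicate 1 of CML c-KIT-low. Replicate 3 was the c-KIT-low library closest to the c-KIT-high range for 335 (47.9%) of 700 genes that were higher without overlap and 792 (76.1%) of 1041 that were lower without overlap. On the other side, replicate 1 of CML c-KIT-high was closest to the c-KIT-low range for 300 (42.9%) and 625 (60.0%) of these genes.

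Markers of other cell types varied between libraries. Summed neutrophil markers reached 6390 CPM in replicate 3 of normal c-KIT-low and ranged from 50 to 2730 CPM in the other 11 libraries. Summed markers of neutrophils (p = 0.855, exact permutation within disease states), monocytes (p = 0.75), T and NK cells (p = 0.17), megakaryocytes (p = 0.935) and mast cells (p = 0.37) overlapped between the gates. *Cd3g* had no count in any library, and *Cd3e*, *Ncr1*, *Alas2*, *Mcpt4* and *Cdh5* stayed under 1 CPM. Summed B cell markers ranged from 160 to 445 CPM at c-KIT-high and from 311 to 10300 CPM at c-KIT-low (p = 0.015, exact permutation), carried by the immunoglobulin genes of the CML c-KIT-low libraries. There *Ighm* stood at 5407, 3608 and 1082 CPM, while *Cd79a* stayed at 3.08 CPM or less and *Pax5* and *Ms4a1* had no count. *Ighm* and *Igkc* are not described further, a choice made after their values were seen. Summed endothelial and stromal markers ranged from 100 to 153 CPM and from 198 to 390 CPM without overlap (p = 0.005, exact permutation). The most abundant of them were *Tie1*, *Emcn* and *Pecam1*. Erythroid markers ranged from 3500 to 6260 and from 1390 to 5690 CPM (p = 0.02, exact permutation), mostly from the carbonic anhydrase gene *Car2*, named after its values were seen. The part of these markers' cells in the gene changes was not tested.

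Among all tested genes, 10.3% were called higher and 12.5% lower in the average effect by edgeR's quasi-likelihood test, where called means a p under 0.05 after Benjamini-Hochberg adjustment over these genes. The median change was a log2 difference of 1.59 for genes called higher (1.66 in normal, 1.61 in CML) and of -2.95 for genes called lower (-2.67 in normal, -3.0 in CML), beside 0.10 for all genes. A log2 difference of at least 1 in each state separately was seen for 956 (63.3%) of the genes called higher and 1484 (80.9%) of those called lower. Single libraries overlapped often: the c-KIT-low and c-KIT-high ranges were apart in both states for 700 genes called higher (4.77% of all tested) and 1041 called lower (7.09%), 11.9% in both directions. Irrespective of the call the ranges were apart for 5.67% and 8.01% of all tested genes, 13.7% in all. Averaging over the states supplied part of the calls, since 790 (52.3%) of the higher and 910 (49.6%) of the lower genes were called in neither state alone. Only 94 (6.23%) of the higher and 320 (17.4%) of the lower genes were called in each state separately. In normal cells alone 455 genes were higher (3.1%) and 499 lower (3.4%), and in CML cells alone 427 (2.91%) and 811 (5.53%). The changes of a gene in the states come from different libraries, and over all tested genes they had the same sign for 66.3% of genes, with a Pearson r of 0.373 across genes, which are not independent replicates.

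**Figure D2:**
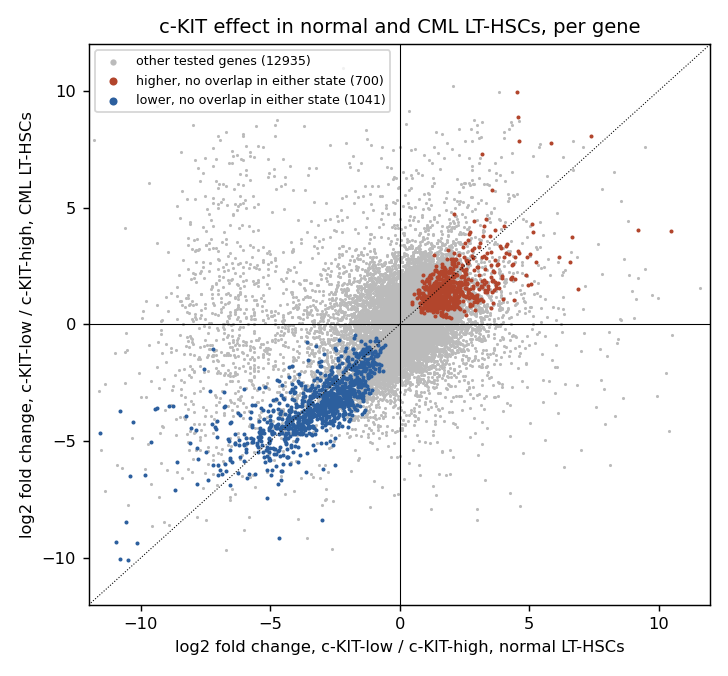
Log2 fold change, c-KIT-low over c-KIT-high, in CML LT-HSCs (vertical axis) against that in normal LT-HSCs (horizontal axis) for 14676 tested genes (points). Colored points are genes called higher (700) or lower (1041) whose gates did not overlap in either state, which selects for a shared sign. Other tested genes, called or not, are grey, and 7 genes fall outside the plotted range of 12 log2 units.

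The leading genes higher in c-KIT-low LT-HSCs were low or absent in c-KIT-high libraries. *Gfi1*, a zinc finger repressor that restrains stem cell proliferation (chr5:107716657-107726036), was at 0, 0 and 0.382 CPM in normal c-KIT-high and at 140.4, 44.5 and 59.1 CPM in normal c-KIT-low LT-HSCs. In CML cells it was at 2.13, 0.662 and 2.96 CPM at c-KIT-high and at 30.6, 14.6 and 50.6 CPM at c-KIT-low. There was no overlap between the gates in either state, with a normal ratio of 697 (95% counting interval 239 to 3380, from 3 counts at c-KIT-high, counting error only) and a 16.6-fold difference in CML. *Gimap3*, a GTPase of immune cells and their precursors, had 0 counts in all 3 CML c-KIT-high libraries and 7.56, 11 and 4.94 CPM in CML c-KIT-low, at least 77.9-fold higher when the empty group is set to a floor of 3 counts in total. In normal cells it stood at 3.76, 5.19 and 2.68 CPM at c-KIT-high against 171, 70.4 and 25.2 CPM at c-KIT-low. For both genes replicate 1 of normal c-KIT-low was the highest of all libraries.

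The receptor tyrosine kinase gene *Axl* stood at 2.31, 2.15 and 5.99 CPM in normal and 3.66, 3.53 and 3.84 CPM in CML c-KIT-high libraries. It stood at 108, 55.8 and 15.7 CPM in normal and 31.2, 33.4 and 48.9 CPM in CML c-KIT-low libraries. No library of the low gate reached down to the high gate, and the average was 13.3-fold higher (log2 3.73 ± 0.56 SE, adjusted p = 0.00137). *Hid1*, needed for sorting into dense-core vesicles, was 12.1-fold higher (log2 3.60 ± 0.43), and *Pex6*, an ATPase of peroxisome import, was 8.19-fold higher (log2 3.03 ± 0.47). Completing the 10 with the largest change in the weaker state were *Fam234a*, *Arhgef3*, *Bcam*, *Gbp8* and *Exoc3l*, 9.12-fold to 14.5-fold higher, of which *Exoc3l* shares 14.4% of its exonic bases with a neighbor.

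*Kit* itself (chr5:75574916-75656722) was higher on average, not lower, in cells with little surface c-KIT, though not in every library or setting. It stood at 132, 143 and 129 CPM in normal c-KIT-high and at 380.0, 675 and 33.6 CPM in normal c-KIT-low libraries. CML libraries had 57.6, 104 and 218 CPM at c-KIT-high and 470.4, 494 and 565 CPM at c-KIT-low. Libraries of the gates did not overlap in CML, while in normal cells replicate 3 of c-KIT-low fell below every c-KIT-high library. The average was 3.3-fold higher (log2 1.72 ± 0.54 SE, adjusted p = 0.0374). Adjusted p ranged from 1.15e-05 to 0.127 over the 22 other settings tried, and the call held in 7 of them and was weaker in 15. Of 21 tested genes of the c-KIT receptor and its turnover, 6 were higher and none lower (28.6% higher, beside 10.3% of all genes), among them *Ptpn6*, the phosphatase SHP-1 that damps c-KIT signaling (2.55-fold), and *Lyn*, a SRC family kinase bound to the receptor (2.54-fold). None of the 21 was called once each library's trend on coding length was taken out, an alternative chosen after seeing the data. In that setting 6.81% of 12476 tested genes were called higher and 7.81% lower, the shares against which its counts are read.

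Other genes of the sort did not follow a single direction. *Slamf1*, which encodes CD150, had an average log2 difference of 0.28 ± 0.85 (adjusted p = 0.848), *Cd48* of -0.36 (adjusted p = 0.868) and *Flt3* of 1.49 (adjusted p = 0.33). *Ly6a*, which encodes Sca-1, passed the test on average (adjusted p = 0.0255) but not in 1 direction, with log2 differences of 3.10 in normal and -0.43 in CML LT-HSCs.

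Surface genes of long-term stem cells, genes of the sort included, formed the list with the largest share called higher, 11 of 19 (57.9%, against 10.3% of all genes). The median log2 difference was 1.64 (1.71 in normal and 0.92 in CML), against 0.10 over all genes. Of the 11, 4 had no overlap in either state. *Cd47*, the "don't eat me" signal, was the one called lower (log2 -0.73 ± 0.24, adjusted p = 0.042). *Procr*, which encodes the endothelial protein C receptor used to isolate stem cells, went from 26.5, 11.5 and 18.1 to 333, 105 and 240.1 CPM in normal cells. In CML it went from 63.7, 29.3 and 31 to 74.3, 64 and 93 CPM, where the closest libraries nearly touched. All CML and normal libraries still kept the gates apart within their state, and the average was 4.75-fold higher (log2 2.25 ± 0.36 SE, adjusted p = 0.00178). *Vwf*, which marks platelet-primed stem cells, was 3.42-fold higher (adjusted p = 0.0101) without overlap in either state, and the TGF-β co-receptor gene *Eng* was 4.09-fold higher (adjusted p = 0.0117) with replicate 3 of normal c-KIT-low below all normal c-KIT-high libraries. With coding length taken out, 8 of the 19 were called higher and 1 lower. *Procr* and *Vwf* were among the 8 and *Eng* was not (log2 1.54, adjusted p = 0.0557).

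Of 34 quiescence genes, 11 were higher and 1 lower (32.4% higher, median 0.35). *Junb*, an AP-1 subunit that limits stem cell cycling, stood at 30.6, 48.2 and 59.1 CPM in normal c-KIT-high and 332, 210.1 and 273 CPM in normal c-KIT-low libraries. Among CML libraries it was at 644, 403 and 312 CPM against 1369, 909.6 and 772 CPM, so the gates were apart in each state around different baselines, 3.64-fold on average (log2 1.86 ± 0.29). *Rbl2*, the pocket protein p130 of resting cells, was 7.8-fold higher (adjusted p = 0.0045) and *Txnip*, an arrestin that restrains glucose uptake, 3.37-fold higher (adjusted p = 0.00345). *Rbl2* shares 21% and *Txnip* 19.4% of exonic bases with other genes, which unstranded reads cannot resolve. The transcription factors of stem cells did not move as a group, with 3 of 30 higher (10%, beside 10.3% of all genes) and 2 lower. The 3 were *Gfi1*, *Gata2* (2.47-fold) and *Ldb1*, and the lower ones included *Lyl1* (4.88-fold lower, adjusted p = 0.0158). Replicate 3 of normal c-KIT-low had *Gata2* at 90.2 CPM, below all normal c-KIT-high libraries. Over the 22 other settings the call was weaker in 8 for *Gata2* and in 15 for *Ldb1*.

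Of 49 genes of IL-6, JAK and STAT signaling, 17 were higher and 1 lower (34.7% higher, median 1.17, with 1.19 in normal and 1.17 in CML), and of 42 cytokine and growth factor receptors 13 were higher and 2 lower (31%, median 1.02). *Csf3r*, the G-CSF receptor, stood at 1.88, 4.43 and 6.37 CPM in normal c-KIT-high and at 42.3, 73.5 and 12.9 CPM in normal c-KIT-low libraries. In CML cells the values were 9.37, 7.94 and 14.3 CPM against 59.5, 57.8 and 111 CPM. The gates were apart in each state, and the average was 8.56-fold higher (log2 3.10 ± 0.52 SE, adjusted p = 0.00216). *Il27ra*, the IL-27 receptor, was 3.86-fold higher and *Pim2*, a survival kinase induced by STAT5, 3.75-fold higher, both without overlap. *Stat6*, which acts downstream of IL-4, was 4.15-fold higher (adjusted p = 0.00153), with 2.71-fold in normal and 6.34-fold in CML, and its normal libraries overlapped. *Ltb*, lymphotoxin beta, leaned the other way, 15.8-fold in normal and 2.13-fold in CML. *Il2rg*, the common gamma chain, was 3.95-fold higher but overlapped in CML and shares 30.5% of its exonic bases. *Ptpn2*, a phosphatase that switches off JAK and STAT proteins, was the 1 gene lower (1.95-fold, adjusted p = 0.0316).

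Of 71 interferon response genes, 20 were higher and 2 lower (28.2% higher, median 1.12, with 1.39 in normal and 0.59 in CML). *Irf1*, the transcription factor at the head of the interferon gamma response, stood at 14.2, 29.7 and 35.6 CPM in normal c-KIT-high and at 207, 139 and 172 CPM in normal c-KIT-low libraries. CML cells had it at 42.9, 87.9 and 51 CPM against 97.9, 106 and 111 CPM. There was no overlap between the gates in either state, with a 6.52-fold change in normal and 1.73-fold in CML, and the average was 3.36-fold higher (log2 1.75 ± 0.30 SE, adjusted p = 0.00247). *Oasl2*, an antiviral oligoadenylate synthetase-like gene, was 4.23-fold higher and *Tap2*, a subunit of the peptide transporter for class I, 2.44-fold higher, both without overlap. The 2 lower genes were *B2m*, the light chain of class I (log2 -1.48, adjusted p = 0.0227), and *Ifitm3* (log2 -1.58, adjusted p = 0.0279), with coding sequences of 357 and 411 bases. Neither separated the gates in normal cells. Of 10 class II genes only *Cd74*, the invariant chain, was called: 94.7, 50.5 and 46.8 against 1786, 467 and 1590 CPM in normal, and 42.2, 22.2 and 33.6 against 148, 127 and 124 CPM in CML. With coding length taken out, 6 of the 71 interferon genes, 12 of the 49 IL-6, JAK and STAT genes and 8 of the 42 receptors were called higher, beside 6.81% of all genes in that setting.

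The start region of *Irf1* is shown because a STAT binding element lies close to the start. In the 200 bases before its RefSeq start on GRCm38.p6 (chr11:53769814-53770013, plus strand), capitals mark a match to the GAS element TTCNNNGAA.
Irf1: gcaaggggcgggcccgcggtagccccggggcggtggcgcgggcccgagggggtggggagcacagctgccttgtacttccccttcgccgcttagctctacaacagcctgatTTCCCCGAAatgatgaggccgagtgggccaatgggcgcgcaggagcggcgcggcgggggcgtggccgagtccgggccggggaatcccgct
Motifs were searched on both strands from 250 bases before to 50 after the start of 10399 tested genes with a RefSeq promoter. GAS elements were in 33.3% (18 of 54) of interferon list promoters and the paired half-site of the interferon-stimulated response element in 44.4% (24 of 54), against 6.8% and 3.11% of all promoters. Over all genes called higher the shares were 6.98% and 3.12%, beside the shares in all promoters.

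Of 31 genes of glycolysis and glucose uptake, 12 were higher and 2 lower (38.7% higher, median 1.14). *Slc2a1*, the glucose transporter GLUT1, stood at 12.6, 17.2 and 11 CPM in normal c-KIT-high and at 81.6, 80.2 and 61.4 CPM in normal c-KIT-low libraries. In CML it stood at 27.6, 23.9 and 24.7 CPM against 79.5, 82.8 and 91.7 CPM. All c-KIT-low libraries were above all c-KIT-high libraries, with a 4.27-fold average (log2 2.09 ± 0.28 SE, adjusted p = 0.000925). *Pfkl*, the liver-type phosphofructokinase that commits glucose to glycolysis, was 4.14-fold higher without overlap, and the transporter gene *Slc2a3* (GLUT3) 4.73-fold higher with replicate 3 of normal c-KIT-low below all normal c-KIT-high libraries. *Hk2*, the inducible hexokinase that opens the pathway, moved against its list: it fell from 345, 843 and 877 CPM to 33, 22.8 and 25.6 CPM in normal. In CML it fell from 57.8, 439 and 1165 CPM to 32.1, 31.7 and 40.7 CPM, 20.1-fold on average over both states. Once coding length was taken out, 6 of the 31 were called higher and 2 lower.

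Of 55 lysosome and autophagy genes, 19 were higher and none lower (34.5% higher, median 0.92, with 1.17 in normal and 0.81 in CML). *Psap*, the precursor of the saposins that help lysosomal enzymes digest sphingolipids, stood at 145, 71.8 and 56.1 CPM in normal c-KIT-high and at 499, 451 and 178 CPM in normal c-KIT-low libraries. CML libraries had 90.3, 47.6 and 82.6 CPM against 469, 457 and 588 CPM. Libraries of the gates did not overlap in either state, and the average was 5.33-fold higher (log2 2.41 ± 0.35 SE, adjusted p = 0.00116). *Gaa*, the lysosomal glucosidase that breaks down glycogen, was 5.46-fold higher with an overlap in normal cells, *Atg7*, the enzyme that activates ATG12 and LC3, 4.17-fold, and *Sqstm1*, the autophagy receptor p62, 2.92-fold. After coding length was taken out, 14 of 55 were called higher.

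Stress and growth-brake genes added smaller groups, all without a lower member: 6 of 32 genes of the integrated stress response (18.8%), 6 of 29 FOXO targets and mTORC1 brakes (20.7%) and 4 of 34 p53 targets (11.8%, near the 10.3% of all genes). *Trib3*, a pseudokinase induced by ATF4 that inhibits AKT, was at 3.47, 4.17 and 5.35 CPM in normal c-KIT-high and 103, 67.3 and 89.9 CPM in normal c-KIT-low libraries. In CML it was at 1.45, 5.41 and 9.77 CPM against 28.9, 34.9 and 33.7 CPM, again without overlap, and the average was 10.8-fold higher (log2 3.44 ± 0.48 SE, adjusted p = 0.00101). *Sesn1*, a sestrin that holds back mTORC1 and is a p53 and FOXO target, was 3.61-fold higher, *Pik3ip1*, an inhibitor of PI3K, 2.82-fold and *Mdm2*, the p53 ubiquitin ligase, 3.93-fold. After the same correction for coding length, 1, 4 and 3 genes of these lists were called higher.

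Fatty acid handling, Wnt and Hedgehog genes were higher more often than all genes, 10 of 46 (21.7%), 8 of 40 (20%) and 4 of 19 (21.1%). *Slc27a1*, a fatty acid transporter, was 7.25-fold higher without overlap, while *Fabp5*, a fatty acid carrier with a 405-base coding sequence, was the 1 lower (5.03-fold). *Ctnnb1*, β-catenin, was 2.52-fold higher (adjusted p = 0.0132), with 0.69 on the log2 scale in normal and 1.97 in CML, and *Myc* was 1.90-fold higher (adjusted p = 0.0135) without overlap. The Hedgehog members were *Evc2*, *Spop*, *Prkaca* and *Smo*, the signal transducer, whose normal libraries overlapped. With coding length taken out, 2, 3 and 1 genes were called higher and 3, 2 and 1 lower, with neither *Myc* nor *Smo* called. TNF and NF-κB genes had 15 of 67 higher and 5 lower (22.4%), with *Icam1* 4.58-fold higher and *Tnfaip2* 10.8-fold lower. Chromatin regulators, with 3 of 57 higher (5.26%) and 4 lower, stayed below the share of all genes, with the Polycomb gene *Cbx7* 4.74-fold higher and the remodeler gene *Chd4* 3.95-fold lower.

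**Figure D3:**
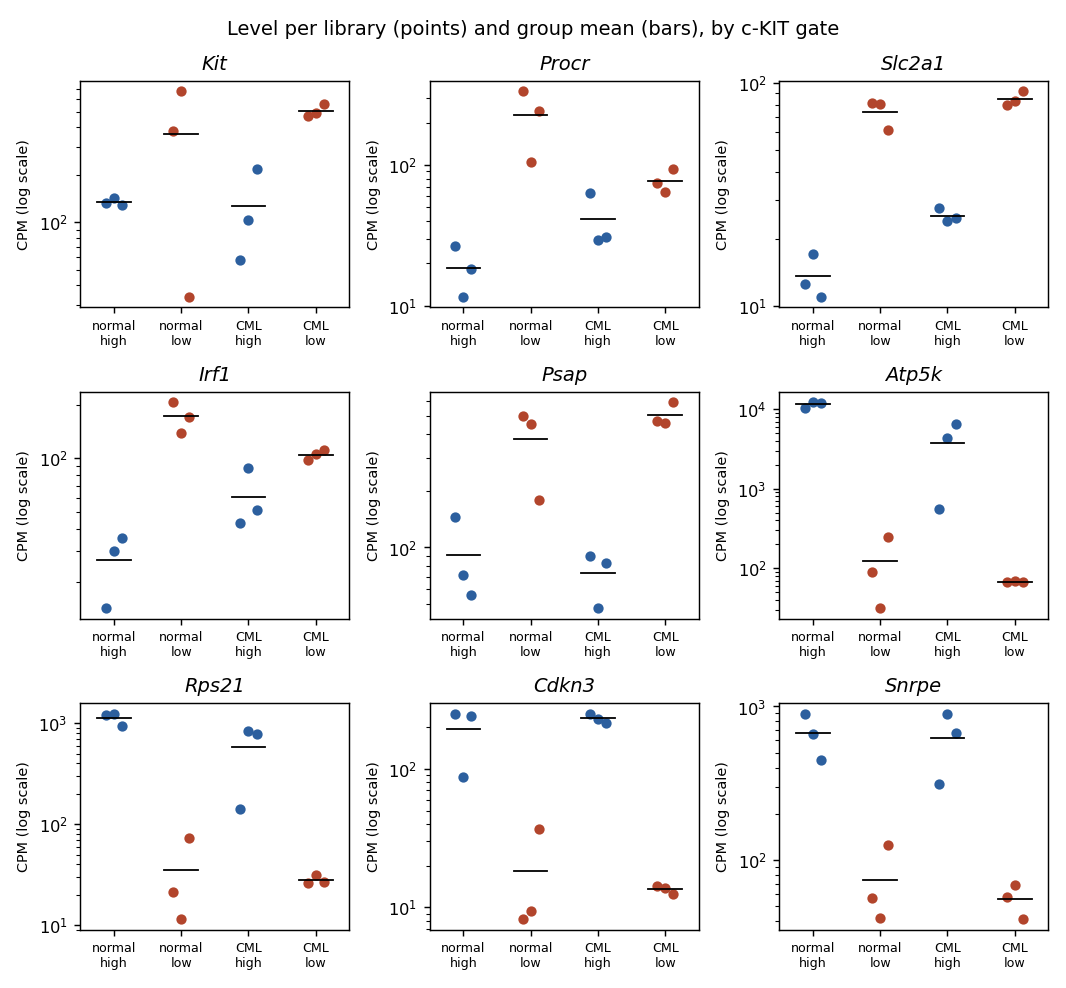
Level in each library (points, CPM on log axes, c-KIT-high in blue and c-KIT-low in red) and group mean (bars) for 9 genes. *Kit* overlaps in normal cells (33.6 against 129 to 143 CPM), while *Procr*, *Slc2a1*, *Irf1* and *Psap* lie higher and *Atp5k*, *Rps21*, *Cdkn3* and *Snrpe* lower at c-KIT-low without overlap in either state.

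Among leading genes lower in c-KIT-low LT-HSCs, most encode small RNAs or very short proteins. *Snord13*, a small nucleolar RNA that guides acetylation of 18S rRNA, stood at 109, 111 and 184 CPM in normal and 18.1, 292 and 354 CPM in CML c-KIT-high libraries. It stood at 0.962, 0.359 and 0.384 CPM in normal and 2.22, 2.77 and 0.802 CPM in CML c-KIT-low libraries. The 104-base RNA was 161-fold lower (log2 -7.33 ± 0.74 SE, adjusted p = 0.000765), with replicate 1 of CML c-KIT-high the lowest of its gate. Poly(A)-primed cDNA does not select such RNAs, and reads of near-identical copies cannot be assigned, so values of *Snord13*, *n-R5-8s1* (a 5.8S rRNA gene) and *Mir6236* are uncertain. *Mir6236* was 96.0-fold lower. These libraries do not measure its mature product, mmu-miR-6236 (chr9:110281353-110281371 on GRCm38.p6, plus strand), which is printed from RefSeq with its seed, bases 2 to 8, in capitals to identify the gene.
mmu-miR-6236: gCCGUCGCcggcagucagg
The remaining 7 were *Usp50*, *Tnrc6a*, *Smim27*, *Atp5k*, *Lars2*, *Hist2h2ac* and *Pet100*. *Lars2*, the mitochondrial leucyl-tRNA synthetase, fell 62.6-fold and *Tnrc6a*, the microRNA silencing scaffold GW182, 60.7-fold, both with coding sequences over 2 kb, unlike the rest of the 10. *Smim27*, *Hist2h2ac* and *Pet100* share 32.2%, 27.1% and 52.6% of exonic bases with neighbors.

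Of 78 nuclear-encoded subunits of oxidative phosphorylation (OXPHOS), the respiratory chain and ATP synthase, 56 were lower and 2 higher (71.8% lower against 12.5% of all genes, median -2.46, with -2.04 in normal and -2.91 in CML), and 43 of the 56 had no overlap in either state. *Atp5k*, which encodes subunit e of ATP synthase, stood at 10500, 12151 and 11940 CPM in normal c-KIT-high and at 90.7, 31.5 and 250 CPM in normal c-KIT-low libraries. CML levels were 561, 4322 and 6431 CPM against 67.3, 69.5 and 67.2 CPM. The gates were apart in each state, 71.8-fold on average (log2 -6.17 ± 0.71 SE, adjusted p = 0.000765), and replicate 1 of CML c-KIT-high was again the lowest of its gate. *Ndufc1* of complex I was 44.7-fold lower and *Cox6c* of complex IV 18.4-fold lower. The 2 subunits that were higher encode large catalytic proteins: *Sdha*, the flavoprotein of complex II, and *Ndufs1*, the largest subunit of complex I. *Sdha* stood at 394, 227 and 256 against 1129, 1024 and 652 CPM in normal cells. Among CML libraries it was at 446, 248 and 329 against 837, 757 and 788 CPM, without overlap, 2.73-fold higher on average (adjusted p = 0.00368).

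NRF1 is a transcription factor of many nuclear OXPHOS genes, and the *Atp5k* promoter is shown because it holds a full NRF1 palindrome. In the 200 bases before its RefSeq start on GRCm38.p6 (chr5:108434400-108434599, minus strand), capitals mark that site.
Atp5k: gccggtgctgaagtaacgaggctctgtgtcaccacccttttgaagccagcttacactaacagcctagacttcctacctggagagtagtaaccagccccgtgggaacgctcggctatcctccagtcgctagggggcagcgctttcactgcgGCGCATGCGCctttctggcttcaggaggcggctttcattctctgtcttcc
This exact site was in 7.69% (5 of 65) of OXPHOS promoters and in 2.07% of all promoters, and in 2.42% of promoters of genes called lower. The other OXPHOS promoters had no exact match in the window.

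All 8 tested mRNAs of the mitochondrial genome were lower (median -2.67). *mt-Nd2*, a complex I subunit (chrM:3914-4951), stood at 1087, 1601 and 994 CPM in normal and 119, 421 and 1520 CPM in CML c-KIT-high libraries. It stood at 18.8, 17.9 and 83.5 CPM in normal and 27.1, 33.2 and 19.8 CPM in CML c-KIT-low libraries, without overlap and 28.1-fold lower on average (log2 -4.81 ± 0.65 SE, adjusted p = 0.000949). *mt-Cytb*, of complex III, fell least among the named ones, 4.57-fold. When coding length was taken out, 7 of the 8 were lower (median -2.92). Transfer RNAs and ribosomal RNAs of the mitochondrion moved alike, with 7 of 8 and 2 of 2 tested genes lower. Total mitochondrial RNA was the library measure given above, and it moved with these genes.

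Of 80 cytosolic ribosomal protein genes, 52 were lower and none higher (65% lower, median -2.14), and of 76 mitochondrial ones 37 were lower and 1 higher (48.7% lower, median -1.12). *Rps21*, a small-subunit protein, stood at 1198, 1246 and 948 CPM in normal c-KIT-high and at 21.2, 11.4 and 72.8 CPM in normal c-KIT-low libraries. In CML cells the values were 139.7, 842 and 782 CPM against 26.1, 31.2 and 26.9 CPM. There was no overlap between the gates in either state and the average was 26.0-fold lower (log2 -4.70 ± 0.56 SE, adjusted p = 0.000765). *Rps29*, *Rpl39* and *Rps28* were 38.8-fold, 31.5-fold and 22.3-fold lower. Ribosomal protein genes have many pseudogene copies, and reads that match several places were not counted, so their levels are uncertain. *Mrpl9* was the mitochondrial ribosomal gene that was higher (log2 0.94 ± 0.30, adjusted p = 0.0436), by 1.77 in normal and 0.10 in CML.

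Ribosomal protein and spliceosome promoters often hold binding sites of ETS factors, and the *Rps21* promoter is shown for its pair of them. In the 200 bases before the start (chr2:180257179-180257378 on GRCm38.p6, plus strand), capitals mark 2 matches to CCGGAAG.
Rps21: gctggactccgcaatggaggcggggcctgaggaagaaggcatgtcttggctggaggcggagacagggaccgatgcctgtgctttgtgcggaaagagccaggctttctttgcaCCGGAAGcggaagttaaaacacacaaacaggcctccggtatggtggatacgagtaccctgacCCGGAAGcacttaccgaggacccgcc
The motif was in 40.7% (24 of 59) of cytosolic ribosomal and 40.8% (20 of 49) of spliceosome promoters against 18.6% of all promoters. Among all genes called higher and lower it was in 21.3% and 22.4%.

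Spliceosome genes were lower in 27 of 57 cases with 1 higher (47.4% lower, median -1.10). *Snrpe*, a Sm ring protein of the spliceosomal snRNPs, stood at 898, 665 and 449 CPM in normal and 312, 898 and 668 CPM in CML c-KIT-high libraries. It stood at 56.1, 41.6 and 125 CPM in normal and 57.5, 68.2 and 40.9 CPM in CML c-KIT-low libraries. All c-KIT-low libraries were below all c-KIT-high libraries, 10.1-fold on average (log2 -3.34 ± 0.39 SE, adjusted p = 0.000765). *Snrpg* and *Lsm7*, of the Sm and Lsm rings, were 15.1-fold and 17.1-fold lower. The 1 gene higher was *Sf3b3*, a large scaffold of the U2 snRNP (3.04-fold, adjusted p = 0.0228), whose normal libraries overlapped.

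Cell cycle genes of G2 and mitosis were lower in 20 of 68 cases with none higher (29.4%, median -1.23, with -1.39 in normal and -0.85 in CML). *Cdkn3*, a phosphatase that acts on CDK1 and CDK2 in mitosis, stood at 250.1, 88 and 242 CPM in normal and 252, 229 and 216 CPM in CML c-KIT-high libraries. It stood at 8.16, 9.38 and 37.1 CPM in normal and 14.3, 13.8 and 12.4 CPM in CML c-KIT-low libraries. Libraries of the gates did not overlap in either state, and the average was 13.5-fold lower (log2 -3.76 ± 0.44 SE, adjusted p = 0.000765). The centromere genes *Cenpw* and *Cenph* were 17.4-fold and 8.87-fold lower. Replication genes of the E2F list split, with 16 of 56 lower and 7 higher (median -0.02). *Hells*, a chromatin remodeler of replicating cells, was 11.7-fold lower and *Rpa3*, of the single-strand binding complex, 5.74-fold lower. OXPHOS, ribosomal protein and spliceosome genes called lower became fewer when coding length was taken out. The share of all genes called lower also fell, from 12.5% to 7.81%. The G2 and mitosis list did not shrink with coding length taken out, with 24 of 68 lower. Without that step its share lower still fell with coding length, from 6 of 6 genes under 0.5 kb to 2 of 27 from 2 kb. The E2F list held 16 lower and none higher with coding length taken out.

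The *Cdkn3* promoter is shown as an example of the CCAAT boxes that mark G2 and mitosis genes. In its 200 bases before the start (chr14:46760341-46760540 on GRCm38.p6, plus strand), capitals mark 3 matches to CCAAT, the last read on the opposite strand.
Cdkn3: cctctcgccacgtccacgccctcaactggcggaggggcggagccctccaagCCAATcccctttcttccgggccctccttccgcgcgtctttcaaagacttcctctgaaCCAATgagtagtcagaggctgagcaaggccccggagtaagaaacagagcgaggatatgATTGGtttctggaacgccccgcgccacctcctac
CCAAT was in 72.4% (42 of 58) of the promoters of this list and in 38.7% of all promoters, against 40.6% of promoters of genes called lower.

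MYC and nucleolar targets moved both ways, with 11 of 44 lower and 3 higher (median 0.07). *Gnl3*, nucleostemin, was 5.78-fold lower and *Ddx18*, an RNA helicase of ribosome assembly, was also lower (log2 -2.81), while *Nop2*, *Pes1* and *Bop1*, which modify and process ribosomal RNA, were higher. With coding length taken out, 11 of the 44 were lower and 1 higher, and *Pes1* and *Bop1* were no longer called. *Nop2* stood at 69.4, 66.8 and 63 against 190.2, 272 and 109 CPM in normal cells. CML cells had it at 76.2, 59.1 and 45.7 against 215, 226 and 269 CPM, without overlap, 3.35-fold higher on average (log2 1.74 ± 0.27 SE, adjusted p = 0.00146). Its promoter is shown for the E-box CACGTG that MYC binds, in capitals (chr6:125131683-125131882 on GRCm38.p6, plus strand).
Nop2: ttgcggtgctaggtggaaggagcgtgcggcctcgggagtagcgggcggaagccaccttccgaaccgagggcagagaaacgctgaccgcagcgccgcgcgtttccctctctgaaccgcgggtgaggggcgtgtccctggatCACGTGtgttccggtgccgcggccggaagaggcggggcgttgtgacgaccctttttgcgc
The E-box was in 38.5% (15 of 39) of the promoters of this list, in 10.1% of all, and in 10.9% and 10.3% of those of genes called higher and lower. Of 42 proteasome genes, 9 were lower (21.4%) and 3 higher (7.14%), with a median near 0 in normal (-0.01) and of -1.09 in CML. With coding length taken out, 14 were lower and 1 higher. The genes named next are from the fit without that step. None of the 9 was without overlap in both states, and *Psma3*, of the core particle, was 2.12-fold lower. The 3 higher were *Psmd2*, *Psmd1* and *Psmd3*, large subunits of the regulatory cap, with *Psmd2* 2.93-fold higher.

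**Figure D4:**
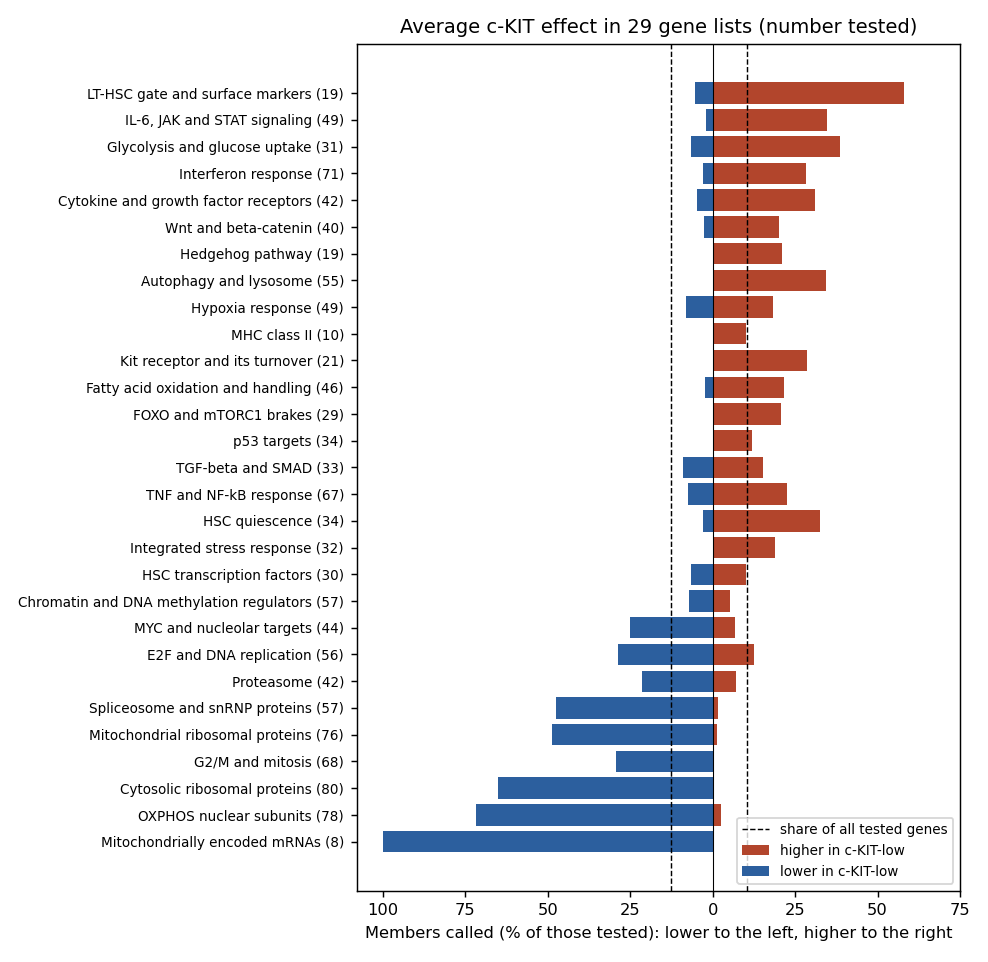
Percent of the tested genes of each of 29 process lists that were called higher (to the right) or lower (to the left) in c-KIT-low LT-HSCs, with dashed lines at the shares of all tested genes, 10.3% and 12.5%. LT-HSC surface genes reach 57.9% higher, and mitochondrially encoded mRNAs, OXPHOS subunits and cytosolic ribosomal proteins 100%, 71.8% and 65% lower.

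Genes called lower tended to have short coding sequences. The median coding sequence was 597 bases for genes called lower, 489 for those also without overlap, 1653 for genes called higher and 1375 for all 12470 tested genes with a coding sequence. Of all genes with coding sequences under 0.5 kb, 44.4% (505 of 1137) were lower, against 12% (349 of 2914) from 0.5 to 1 kb, 4.28% (203 genes) from 1 to 2 kb and 4.54% (167 genes) from 2 kb. Genes called higher took 2.02%, 6.97%, 16.5% and 13.4% of these classes. Within the lists shown here the share lower was also highest under 0.5 kb. Of OXPHOS subunits, 46 of 48 were lower under 0.5 kb, 9 of 19 from 0.5 to 1 kb and 1 of 10 from 1 to 2 kb, and both that were higher were longer than 1 kb. Of cytosolic ribosomal proteins these counts were 39 of 48, 13 of 30 and 0 of 2, and of spliceosome genes 15 of 17, 6 of 12 and 3 of 17, with 3 of 11 from 2 kb. Within the shortest class 95.8% of OXPHOS and 81.2% of cytosolic ribosomal genes were lower, beside 44.4% of all genes. The genes were not matched for level or for length inside the class, and the reason for these shares was not tested.

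**Figure D5:**
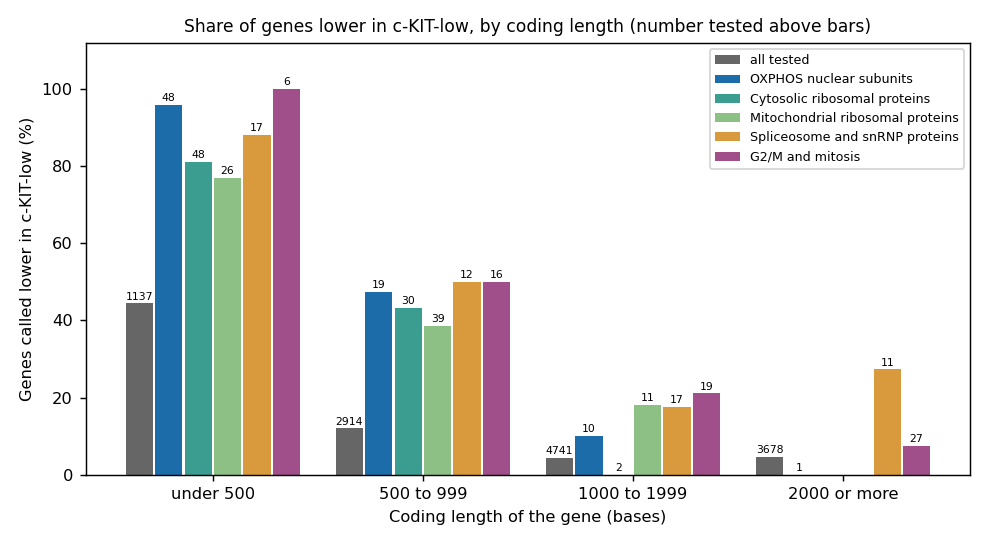
Percent of genes called lower in c-KIT-low LT-HSCs (vertical axis from 0) by length of the longest annotated coding sequence in bases, for all tested genes and 5 lists, with the number of genes tested above each bar. The share of all genes falls from 44.4% under 0.5 kb to 4.54% from 2 kb, and that of OXPHOS subunits from 95.8% to 0 of 1 gene.

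Several classes of genes without a coding sequence held a larger share of lower genes than the 12.5% of all tested genes. Of 892 tested processed pseudogenes, 38% were lower and 3 genes higher, and of 46 small nuclear, nucleolar and other small noncoding RNAs 37 were lower and none higher (80.4%). For lincRNAs and antisense transcripts the shares lower were 15.9% and 19.2%. Among coding genes, of 53 histone genes in the Hist1 to Hist4 clusters, whose mRNAs lack a poly(A) tail, 38 were lower and none higher (71.7%, median -4.14), a class chosen after its values were seen. Protein-coding genes made up 98.9% of the genes called higher, 66.6% of those called lower and 84.8% of all tested. Genes called higher were also richer in GC: by quintiles of exonic GC content from the lowest to the highest, the share called higher rose from 3.04% to 17.1%, and the share called lower fell from 16.8% to 9.8%.

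Taking out each library's trend on coding length left 850 genes called higher and 974 lower, and kept 1429 (42.7%) of the 3345 calls, of which 2723 had a coding length and could be tested in it. With that setting 48 of 78 OXPHOS genes (median -1.11), 46 of 80 cytosolic ribosomal genes (-1.22), 22 of 76 mitochondrial ribosomal genes (-0.64) and 20 of 57 spliceosome genes were lower. *Sdha*, with a log2 difference of 0.83 (adjusted p = 0.119), and *Kit*, with 1.31 (adjusted p = 0.101), were no longer called. Calls that stood in every one of the 22 other settings included *Gfi1*, *Gimap3*, *Axl*, *Procr*, *Junb*, *Irf1*, *Csf3r*, *Slc2a1*, *Psap*, *Atg7*, *Trib3* and *Nop2* among higher genes. Among lower genes they included *mt-Nd2*, *Snrpe*, *Cdkn3*, *Hells*, *Hk2* and *Gnl3*.

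The states were compared with each other to see where the shared effect differed in size. No gene passed the test of the difference of the c-KIT effect between CML and normal by edgeR (0 of 14676, smallest adjusted p = 0.294), while 1663 genes had an unadjusted p under 0.05, limma-voom called 0 and DESeq2 called 286. With few libraries this does not show that the states respond alike, and *Procr*, *Irf1* and *Cd74*, with larger changes in normal, or *Stat6* and *Ctnnb1*, with larger changes in CML, were not shown to differ. The change was larger in normal cells for 792 (52.5%) of the genes called higher and 675 (36.8%) of those called lower. Of the 29 process lists, 18 had medians above 0 in both states and 8 had medians below 0 in both.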

How the data were processed

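LT-HSCs of the 4 groups were profiled by RNA-Seq from SMARTer low-input cDNA and Nextera XT libraries, which keep no strand. Counts are whole numbers without normalization, as deposited by the authors, who used STAR 2.5.3a on GRCm38 and HTSeq 0.9.1 on Gencode M11. The submitters' processing notes also name DESeq2 1.22.2 and DRAGEN. Reads in the 5 HTSeq classes without a gene entered neither library sizes nor tests, and appear above as shares of entries. Symbols, exonic lengths, coding lengths and shared exonic bases came from GENCODE M21, and 48435 of 48795 identifiers matched. Promoters and the miRNA came from RefSeq (GRCm38.p6), with 10399 of 14676 tested genes matched.

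Genes were kept by edgeR's filterByExpr, scaled by TMM and fitted with 1 mean per group (edgeR 4.0.16, R 4.3.3, quasi-likelihood F test, Benjamini-Hochberg adjustment over all tested genes). CPM is on scaled sizes and compares a gene between libraries, not genes with each other. Library measures were tested by exact permutation of the gates within disease states. Counting intervals and floors cover counting error only. Tested on simulated data for the average effect (14071 genes, 50 per size), the fit recovered 2%, 30%, 66% and 82% of genes with log2 changes of 1, 2, 3 and 4. It called 1 of 13871 unchanged genes. Far fewer genes changed in the simulation than the 22.8% called in the data, which makes the adjustment stricter there. The recovered shares therefore do not give the share of small changes detected in the data.

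The genes described and the lists were chosen with earlier results of these data known, and lists were typed from general knowledge. The text names the 10 genes each way with the largest change in the weaker state (mean of 20 CPM or more, called, no overlap in either state), *Kit* and genes of the sort, per list up to 4 called members by smallest p, up to 3 members called against their list, and the 5 genes with the smallest p for the difference between states. *Igkc*, *Car2* and markers of other cells were named after their values were seen. Some genes that this rule names are left out of the text. Alternatives were DESeq2 1.42.0, limma-voom 3.58.1 with sample weights, medians of ratios, no filter, an additive model, thinning to 7753878 counts, genes of 1 kb or more, offsets by exonic length and by coding length, a replicate block and each library left out.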

Additional observations from a re-analysis of the deposited data

Results flagged for a closer look

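Of the tested genes, 130 (0.886%) had c-KIT-low and c-KIT-high libraries that were apart in both disease states but in opposite directions. The 6 genes below stood out because their c-KIT effect differed between normal and CML LT-HSCs at the smallest unadjusted p-values of edgeR's quasi-likelihood test, or, for *Acvr1*, because it was named through its list. None passed adjustment over all genes (smallest adjusted p = 0.294), and each rests on few counts in at least 1 group. *Nphp4*, a ciliary protein gene (unadjusted p = 0.000101), was lower at c-KIT-low in normal, with a ratio of 202 (95% counting interval 35.0 to 8080), and higher in CML, with a ratio of 75.2 (13.3 to 2990). *Zswim5* (unadjusted p = 0.000148) was lower in normal with a ratio of 219 (38.1 to 8760) and had a log2 difference of 3.65 in CML. *Nt5e*, the ecto-nucleotidase CD73 (unadjusted p = 0.000201), was at least 34.6-fold lower in normal and had a log2 difference of 6.13 in CML. *Csf1r*, the M-CSF receptor (unadjusted p = 0.00021), was at least 58.6-fold lower in normal and higher in CML with a ratio of 225 (40.2 to 8890), and it shares 15.1% of its exonic bases. *Txk*, a TEC family kinase gene (unadjusted p = 0.00024), was at least 21.1-fold lower in normal and at least 19.1-fold higher in CML. *Acvr1*, a BMP receptor gene (unadjusted p = 0.000715), was at least 41.3-fold lower in normal and had a log2 difference of 2.18 in CML.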

How the results depend on the processing

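Genes called higher (1510) and lower (1835) were counted again under each alternative, with those of the same sign in both states (1499 and 1808) and those without overlap (700 and 1041) after them. Offsets by coding length, chosen after seeing the data, gave 850 and 974, then 838 and 962, then 347 and 493. Offsets by exonic length gave 889 higher, 876 with the same sign, and 442 and 689 without overlap. DESeq2 gave 3134 lower and 3049 with the same sign, and genes of 1 kb or more gave 563 lower without overlap. With the replicate number as a block the counts were 573 and 903, 572 and 902, and 372 and 658. Correlations of same-numbered deviations were 0.096, 0.059 and -0.066 in normal and 0.056, 0.062 and -0.003 in CML. Some libraries, but not every one, correlated best with their own number. With so few libraries per group, these values cannot settle whether replicate numbers pair the libraries. Leaving out 1 library gave 839 (without replicate 2 of CML c-KIT-high) to 1942 higher and 960 (without replicate 1 of CML c-KIT-low) to 2445 lower, 837 to 1930 and 957 to 2373 with the same sign, and 509 to 1415 and 725 to 1648 without overlap, each highest value without replicate 3 of normal c-KIT-low. Without replicate 1, 2 or 3 of CML c-KIT-low the genes called higher numbered 869, 892 and 844 and those lower 960, 997 and 993, and without replicate 2 or 3 of CML c-KIT-high 839 and 965 were higher. The difference between states gave 0 genes, 286 with DESeq2, 137 with no filter, and 0 to 416 with 1 library left out, the highest without replicate 2 of normal c-KIT-low.

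Calls changed sign for 72 genes with coding-length offsets, 12 with exonic-length offsets and 0 in each of the other 20 settings. Among named genes, *Nrgn* (0.54) and *Pf4* (0.020) turned with coding-length offsets and *Hbb-bt* (0.086) with exonic-length offsets, all lower with no offset. Medians of ratios moved the median of all genes from 0.10 to 0.000832. The side of the threshold held in all 22 settings for 85 of 160 named genes, and for 7 more in the 20 or 21 settings that tested them. The cause of these shifts was not tested.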

Other observations

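Of 16 tested megakaryocyte genes, which platelet-primed stem cells share, 5 were higher in c-KIT-low LT-HSCs (31.2%, beside 10.3% of all genes). Another 2 were lower (12.5%, the same share as of all genes). Among the higher genes was *Gp1ba*, a subunit of the von Willebrand factor receptor, which was 5.14-fold higher (adjusted p = 0.00694) without overlap in either state. The 2 lower genes were *Nrgn* (log2 -1.54) and *Pf4*, platelet factor 4, which has a coding sequence of 315 bases. *Pf4* stood at 10783, 4242 and 2335 CPM in normal c-KIT-high and at 622, 602 and 3252 CPM in normal c-KIT-low libraries. In CML it stood at 844, 1640 and 584 against 509, 417 and 215 CPM. The gates overlapped in normal cells through replicate 3 of c-KIT-low and were apart in CML, and the average was 3.23-fold lower (adjusted p = 0.0438).

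Of 33 TGF-β and SMAD genes, 5 were higher (15.2%, beside 10.3% of all genes) and 3 lower. With coding length taken out, none of the 33 was called higher and 1 was called lower. *Smad1*, which carries BMP signals, was 2.41-fold higher (adjusted p = 0.00804) without overlap, and *Eng* and *Smad4* were also higher, while *Tgfbr1*, the type I receptor of TGF-β, was lower (log2 -3.04, adjusted p = 0.0392). *Tie1*, an orphan receptor kinase of endothelial and stem cells that was entered as an endothelial marker, was 4.76-fold higher (adjusted p = 0.00285). In normal cells its gates overlapped, with replicate 3 of c-KIT-low at 34.9 CPM within the c-KIT-high range (27.0 to 40.8 CPM). Summed endothelial and stromal markers ranged from 198 to 390 CPM at c-KIT-low against 100 to 153 CPM at c-KIT-high. *Tie1* itself made up 135, 145 and 201 CPM of the sum in the CML c-KIT-low libraries, so the sum is no separate measure. The part of other cells in the change of *Tie1* was not tested.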
